A study of Mus musculus with 9 samples.

Results

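The kinesins, the superfamily of ATP-driven motor proteins that walk along microtubules or take them apart, were followed at the RNA level in mouse embryonic stem (ES) cells with and without the member Kif2a. The members were the rows of the deposited table whose symbol is Kif or Kifc followed by a number and an optional letter, plus Cenpe, a kinesin named for the centromere. This gave 40 genes of the 15504 distinct symbols, spread over 14 subfamilies. Another 4 listed kinesins, Kif6, Kif12, Kif2b and Kif25, were not analysed here. Of the 40, 31 had a mean of at least 10 normalised reads over the 9 libraries and were tested, and 9 lay under that level.

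Poly-A RNA was sequenced from unedited ES cells (WT) and from 2 separately edited lines in which Kif2a was removed (KO1 and KO2), with 3 libraries in each group. The labels give 129 as the cell type and no treatment for all groups. No other allele or agent is named, and each line is 1 clone, so that a property of the clone and an effect of the missing gene cannot be told apart within a line. Separate cultures are not named for the 3 libraries of a group, and the p-values therefore cover only the spread among these samples, which may be technical. Levels are normalised reads, given by library or as mean ± SD with n = 3, and changes are log2 differences ± SE on the scale of log2(value + 1). Adjusted p-values are Benjamini-Hochberg values from limma over all 10238 genes tested, with a call at under 0.05. Each library held between 14960295 and 18814858 recovered reads, and the summed level of 6 ES cell markers (Pou5f1, Nanog, Sox2, Zfp42, Esrrb and Klf4) lay between 7152 and 7581 in every library.

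Most kinesins are dimers whose motor domains step toward the plus ends of microtubules, carrying vesicles, mitochondria or ciliary components. The kinesin-14 motors step toward minus ends, and the kinesin-13 motors (Kif2a, Kif2c and Kif24 here) do not walk but strip tubulin from microtubule ends. Dividing cells use a separate set of motors to build the spindle, move chromosomes and form the midbody, and many of their genes are transcribed mainly in G2 and M phase. ES cells divide fast and hold few specialised long processes, while neurons use many of the transport motors. Bulk RNA levels cannot tell apart a change in the number of cells of a type or phase from a change in RNA per cell.

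Kif2a, which acts at spindle poles and in the disassembly of cilia, checked the labels. WT replicates 1 to 3 held 109, 121 and 113 normalised reads. In KO1 the values were 0.886, 1.16 and 0.957, and KO2 had 1.06, 0.710 and 1.75. No knockout library came near a WT library, with 6 to 17 recovered reads against 959 to 1049. Over the 6 knockout libraries the mean was 0.952% of WT, lower in 6 of 6 libraries, and an exact permutation test (two-sided, 84 assignments of the libraries) gave p = 0.0238, the smallest it can give. The log2 change was −5.85 ± 0.18 in KO1 (adjusted p = 1.73e-32) and −5.75 ± 0.18 in KO2 (adjusted p = 4.00e-32). At so few reads the size of this change depends on the 1 that was added before taking logs. With another pseudocount or tool the KO1 value ran from −6.86 (DESeq2) to −4.31 (5 added), and it was called each time. The gene passed the filter on low values through its WT libraries alone. It spans chromosome 13, 106958996 to 107022126 in GRCm38, on the minus strand, and 19.2% of its exonic bases (1229) are shared with exons of Dimt1 on the opposite strand. Dimt1, an rRNA methyltransferase gene, measured 46.7 ± 4.05 in WT, 23.5 ± 2.62 in KO1 and 25.9 ± 2.94 in KO2. Whether reads were counted by strand is not given in the sources used here, and the part that shared reads have in either gene's values was not tested.

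Divided by the length of the union of a gene's exons, the kinesin levels in WT ran over a 2986-fold range, and motors of cell division filled the top. Kif20a, which brings the chromosomal passenger complex to the anaphase spindle, led with 185, 189 and 191 normalised reads per kb in WT replicates 1 to 3. Kifc1, a minus-end motor that focuses spindle poles, followed with 73.4, 68.6 and 73.0 per kb. Kif22, which pushes chromosome arms away from the poles, had 67.8, 69.1 and 72.3 per kb. The last 2 of these overlapped, and Kif2c, the kinesin-13 of centromeres, could not be placed apart from Kif22 with its 68.2, 68.5 and 72.3 per kb. Kif20a lay above all others in every WT library. The first motor without a main role in division was Kif5b, the widely expressed heavy chain of conventional kinesin, in place 5 with 64.9 ± 2.47 per kb.

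Of the 10 highest kinesins per length in WT, 9 belonged to the 14 mitotic motors, a list made of Kif2c, Kif4, Kif11, Kif14, Kif15, Kif18a, Kif18b, Kif20a, Kif20b, Kif22, Kif23, Kifc1, Kifc5b and Cenpe. Their median was 41.5 per kb (range 5.80 to 189), against 4.22 per kb (0.0632 to 64.9) for the other 26 motors. Kif2a, although it acts at spindle poles, is counted among those 26. The median over the 15252 genes of the table with an annotated length was 7.29 per kb, and 24 of the 40 kinesins lay above it, 13 of them mitotic. Kif2a took place 15 with 17.9 ± 1.02 per kb, between Kif13a (18.9 ± 1.28) and Kifc3 (14.5 ± 0.667). In the order of WT means, 15 of the 39 neighbouring pairs did not overlap between libraries, and the other 24 pairs could not be ordered beyond their spread. With the longest transcript as the length, the order below Kif20a changed. Kif23 moved from place 8 (47.9 per kb) to place 2 (111 per kb), followed by Kif2c, Kifc1 and Kif22, Kif13b took the place of Cenpe among the 10 highest, and Kif2a took place 17.

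**Figure D1:**
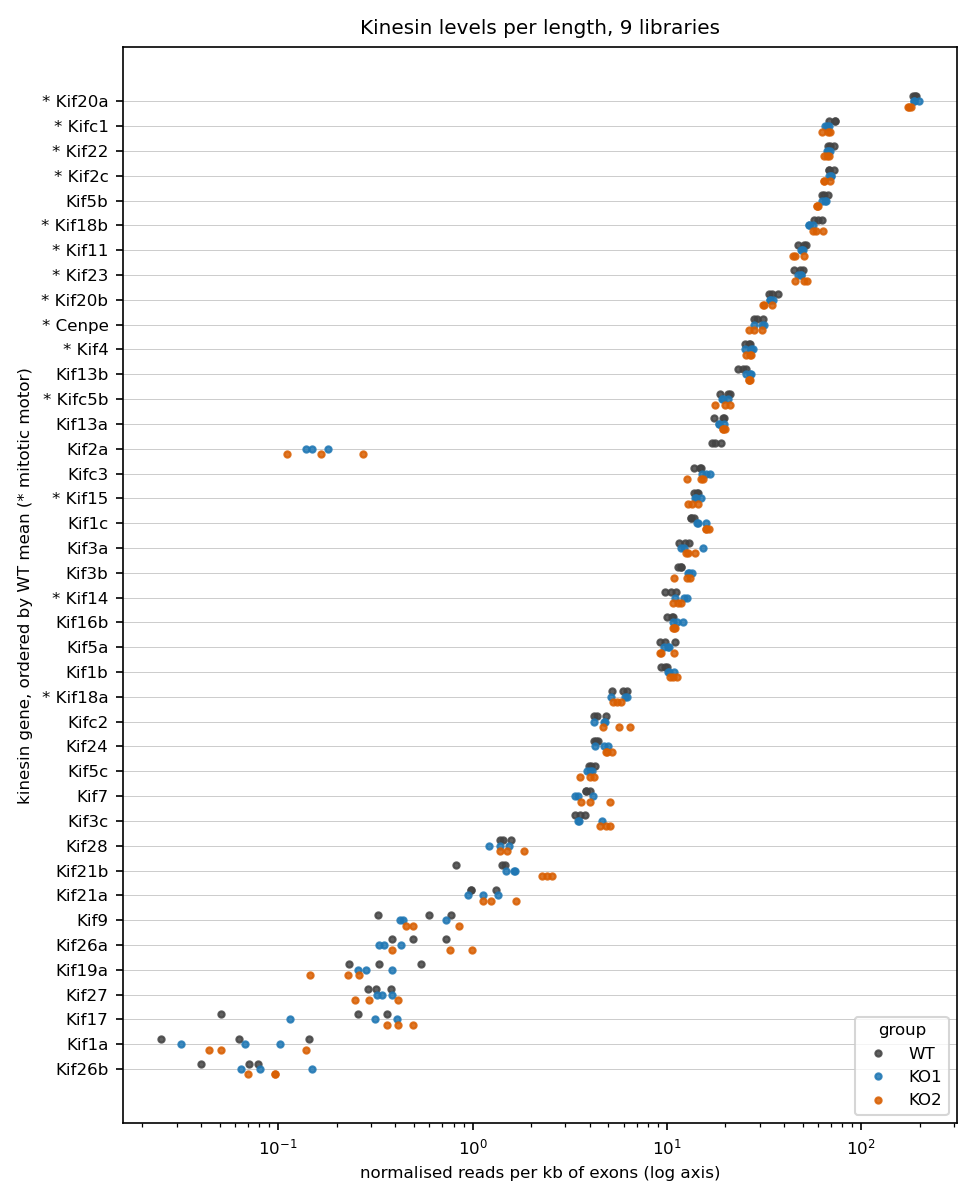
Normalised reads per kb of exons (log axis) for the 40 kinesins, ordered by their WT mean, with 1 point per library in WT, KO1 and KO2 and an asterisk at the mitotic motors. The Kif2a points of KO1 and KO2 stand far left of WT, while for the other genes the 3 groups lie close together beside the 2986-fold range between genes.

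Some mitotic motors carry promoter letters that are known from genes of G2 and M phase. In those genes the cell cycle homology region (CHR, letters TTTGAA or TTCGAA) and CCAAT boxes lie close to the start. RefSeq windows of the 250 bases before an annotated RefSeq start (GRCm38.p6) matched 31 of the 40 kinesins, in 35 windows, and both motifs were searched on both strands. Some of these starts lie within the gene as annotated in GENCODE M21, so a window need not hold the main promoter. Among the windows with CHR letters, those of Kif2c, Kif14 and Kif27 lay wholly inside the gene, as did the Kif1a window at chr1:93082481-93082730. CHR letters were found in 5 of 13 mitotic motors and 4 of 18 others, against 19.55% of all 27025 genes with a window. CCAAT letters were found in 9 of 13 mitotic motors and 6 of 18 others, against 37.49% of all genes. Promoter letters were not tested against the levels, and a match is a description of the letters only. No CHR match overlapped a CCAAT match in the kinesin windows.

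The windows of Kif11, Kif22 and Kif24 are shown as examples that carry both motifs, with a CHR match 19, 17 and 26 bases before the start. Kif14, Kif26b and Kif27 also carry both, with the nearest CHR match 228, 9 and 73 bases before the RefSeq start. For Kif14 and Kif27 that start lies inside the gene. Of these, Kif14 alone is on the mitotic list. Kif11 is the tetrameric motor that pushes spindle poles apart, and Kif24 is a kinesin-13 of centrioles that was not on the mitotic list. The capitals mark CHR and CCAAT matches, which read TTCAAA and ATTGG where they lie on the other strand. The Kif11 window is chr19:37376132-37376381 on the plus strand, that of Kif22 is chr7:127042421-127042670 on the minus strand, and that of Kif24 is chr4:41464849-41465098 on the minus strand.
Kif11: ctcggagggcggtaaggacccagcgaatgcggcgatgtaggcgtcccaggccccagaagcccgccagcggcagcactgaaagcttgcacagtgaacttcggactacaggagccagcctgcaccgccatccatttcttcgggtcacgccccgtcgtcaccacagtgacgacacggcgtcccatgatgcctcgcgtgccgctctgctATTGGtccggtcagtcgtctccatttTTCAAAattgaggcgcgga
Kif22: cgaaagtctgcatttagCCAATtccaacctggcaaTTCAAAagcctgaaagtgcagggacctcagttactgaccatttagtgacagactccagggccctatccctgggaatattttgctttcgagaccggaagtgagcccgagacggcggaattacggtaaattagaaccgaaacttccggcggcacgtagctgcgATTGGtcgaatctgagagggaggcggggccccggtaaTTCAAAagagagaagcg
Kif24: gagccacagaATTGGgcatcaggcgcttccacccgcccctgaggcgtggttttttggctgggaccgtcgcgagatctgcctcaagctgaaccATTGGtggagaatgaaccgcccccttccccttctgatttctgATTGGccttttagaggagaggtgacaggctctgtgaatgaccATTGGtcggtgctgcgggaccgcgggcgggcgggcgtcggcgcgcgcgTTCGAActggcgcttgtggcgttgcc
Kif2a and Kif1c, a vesicle motor, are shown beside them as examples whose windows hold none of these letters, which other kinesin windows lack too. The Kif2a window is chr13:107022115-107022364 on the minus strand, next to the downstream of 2 RefSeq starts, and the Kif1c window is chr11:70700298-70700547 on the plus strand.
Kif2a: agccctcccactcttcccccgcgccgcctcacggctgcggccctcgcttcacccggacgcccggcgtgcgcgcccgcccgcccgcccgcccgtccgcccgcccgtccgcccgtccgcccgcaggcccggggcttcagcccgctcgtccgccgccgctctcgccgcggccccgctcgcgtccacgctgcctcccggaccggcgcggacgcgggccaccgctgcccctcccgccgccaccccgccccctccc
Kif1c: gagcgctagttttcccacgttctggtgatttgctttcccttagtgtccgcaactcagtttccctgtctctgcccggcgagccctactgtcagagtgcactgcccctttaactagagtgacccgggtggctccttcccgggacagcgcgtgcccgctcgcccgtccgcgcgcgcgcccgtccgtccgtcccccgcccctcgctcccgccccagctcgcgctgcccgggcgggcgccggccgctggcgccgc

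Kifc1 and Kifc5b are closely related copies on chromosome 17, and their separate levels are uncertain. Of the 50-base stretches in the longest transcript of Kifc1, 45.8% also occur in transcripts of Kifc5b. Of those in the longest transcript of Kifc5b, 40.9% occur in transcripts of Kifc1. Reads of 50 bases from these stretches cannot be assigned to either gene. Their promoter windows were aligned too, and 200 of 278 aligned columns (71.94%) were identical, with 2 CCAAT matches in capitals in each. They are shown to let the copies be compared, at chr17:33890634-33890883 on the minus strand for Kifc1 and chr17:26916841-26917090 on the plus strand for Kifc5b.
Kifc1: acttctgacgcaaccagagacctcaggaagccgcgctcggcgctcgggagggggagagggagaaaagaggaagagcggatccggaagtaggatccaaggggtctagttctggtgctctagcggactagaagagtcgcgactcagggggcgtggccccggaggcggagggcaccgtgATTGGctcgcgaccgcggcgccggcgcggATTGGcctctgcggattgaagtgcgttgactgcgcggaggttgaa
Kifc5b: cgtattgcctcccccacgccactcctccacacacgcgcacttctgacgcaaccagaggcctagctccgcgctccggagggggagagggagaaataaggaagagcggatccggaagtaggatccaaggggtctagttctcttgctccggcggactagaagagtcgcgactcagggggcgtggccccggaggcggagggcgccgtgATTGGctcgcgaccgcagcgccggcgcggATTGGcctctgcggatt
Kifc1 measured 251, 234 and 249 normalised reads in WT, 232, 223 and 228 in KO1, and 235, 229 and 213 in KO2. Those of KO1 lay below WT, by under 3 normalised reads at the nearest pair, and KO2 overlapped WT. Neither difference was called by limma with the authors' scaling (−0.10 ± 0.05 in KO1, adjusted p = 0.36, and −0.12 ± 0.05 in KO2, adjusted p = 0.095). In KO2 it was called lower by edgeR and by limma with median-ratio scaling. Kifc5b measured 74.7 ± 4.51, 73.1 ± 2.89 and 72.7 ± 6.43.

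At the low end stood 9 kinesins with a mean under 10 normalised reads. They were Kif1a (synaptic vesicle precursors in neurons), Kif17 (dendrites and cilia), Kif9, Kif19a and Kif27 (linked to cilia), Kif21a (microtubule growth in axons), Kif28, and Kif26a and Kif26b, of a subfamily known for lacking ATPase activity. Each was seen in every library, with 2 to 92 reads. The weakest by mean normalised reads were Kif1a, with 2 to 13 reads per library, and Kif19a, with 5 to 19. Kif21a was the best covered, with 83, 55 and 54 reads in WT, 62, 70 and 91 in KO1, and 62, 92 and 78 in KO2. For all 9 genes the KO1 and the KO2 libraries overlapped WT, so no change was detectable at this depth. When all 15526 rows were tested without the filter, none of the 9 was called by limma in any of the 4 comparisons. At an unadjusted p under 0.05 there was 1 in KO2 against WT (Kif17) and 1 in KO2 against KO1 (Kif26a). Of all rows, 0.728% were called when KO1 was compared with WT, 12.3% when KO2 was, 5.82% for the mean of both lines and 5.99% in KO2 against KO1.

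In KO1 against WT, Kif2a was the only kinesin called. That is 1 of 31, with 8 at an unadjusted p under 0.05, and 1.06% of all tested genes were called (0.83% higher and 0.234% lower). None of the other 30 was called by limma, edgeR or DESeq2. An unadjusted p under 0.05 in limma was found for 7 of them, and for 1304 of all 10238 tested genes. Their median log2 change was 0.02, beside 0.02 over all tested genes. The KO1 libraries lay wholly above WT for 6 of the 30 (20%) and wholly below for 2, where 13% and 5.2% of all tested genes did so. The 6 were Kif1b, Kif1c, Kif13b, Kif21b, Kif3b and Kifc3, and the 2 were Kif18b and Kifc1. Kif3b, a motor of transport inside cilia, had 66.8, 66.8 and 64.3 normalised reads in WT and 76.1, 73.3 and 72.4 in KO1. Its difference was 0.16 ± 0.07 (adjusted p = 0.33), and KO2 overlapped WT. Kif18b, which shortens astral microtubules, had 224, 205 and 215 in WT and 192, 202 and 193 in KO1 (−0.13 ± 0.05, adjusted p = 0.26).

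In KO2 against WT, 7 of the 31 kinesins were called: Kif21b, Kif3c, Kif1c, Kif1b and Kif13b were higher, and Kif2a and Kif5b were lower. Over all tested genes 18.5% were called in this comparison (11% higher and 7.51% lower). Leaving out Kif2a, 6 of 30 kinesins (20%) were called, a share near that background. With median-ratio scaling the split among the 31 was 3 higher and 5 lower, since Kif13b and Kif1b were no longer called and Kif20a, Kif20b and Kifc1 were called lower, and over all genes it moved from 1123 higher and 769 lower to 895 and 1023. With the authors' scaling the limma calls fell outside the mitotic list: 6 of the 16 tested non-mitotic kinesins other than Kif2a, and 0 of the 14 mitotic ones. The 16 are not all transport motors, as they include Kif24 and Kif21b. The difference between these groups of motors was not tested.

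**Figure D2:**
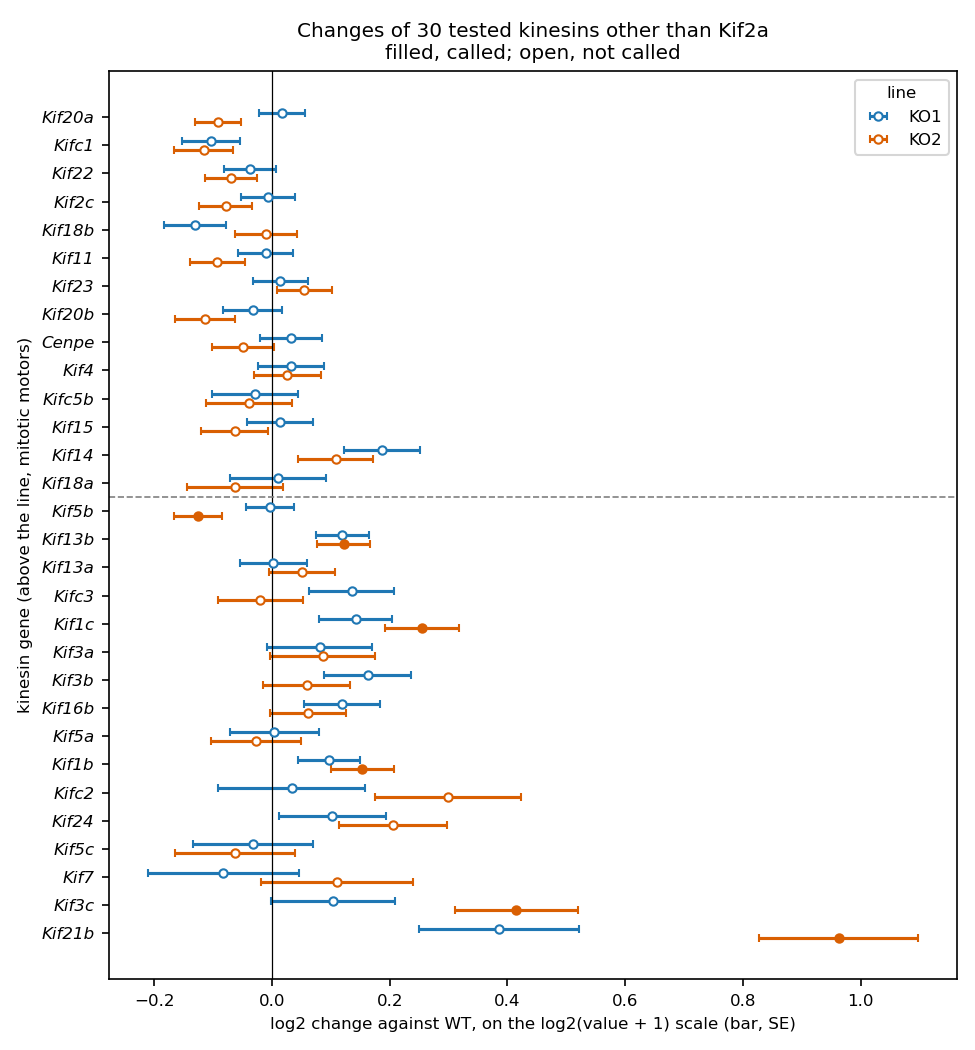
Log2 change against WT with its SE (bars) for the 30 tested kinesins other than Kif2a in KO1 and KO2, with the mitotic motors above the dashed line and filled points for calls. Kif21b in KO2 lies farthest right at 0.96, and most of the others lie between −0.15 and 0.3.

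Kif21b, a kinesin-4 that pauses microtubule growth and is known from neurons and lymphocytes, showed the largest difference among the kinesins other than Kif2a. It had 17.2, 10.002 and 18.0 normalised reads in WT, 18.1, 20.3 and 19.8 in KO1, and 31.1, 27.8 and 29.4 in KO2. No 2 groups overlapped, KO1 cleared the highest WT library by under 1 normalised read, and WT replicate 2 lay far below the other WT libraries. In KO2 it rose by 0.96 ± 0.14 (adjusted p = 6.77e-07, 95% interval 0.69 to 1.24), and in KO1 the difference was 0.39 ± 0.14 (adjusted p = 0.17). The change in KO2 was larger than that in KO1 by 0.58 ± 0.14 (adjusted p = 0.0033). With WT replicate 2 left out the KO2 change was 0.71 (adjusted p = 5.49e-05). The gene lies on chromosome 1, 136131389 to 136177998 on the plus strand, 288.3 kb from Kif14, a midbody motor that was not called. Kif14 measured 109 ± 6.96 in WT, 124 ± 9.24 in KO1 and 117 ± 5.79 in KO2.

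Kif3c, a kinesin-2 that can pair with Kif3a and is enriched in neurons, had 26.4, 25.0 and 27.9 normalised reads in WT, 34.3, 26.0 and 25.8 in KO1, and 37.6, 33.4 and 35.9 in KO2. All KO2 libraries lay above WT, and KO1 replicate 1 alone among the KO1 libraries reached the KO2 range. The KO2 change was 0.42 ± 0.11 (adjusted p = 0.0034), and the KO1 difference was 0.10 ± 0.11 (adjusted p = 0.76). Its partner Kif3a measured 44.3 ± 2.60, 47.2 ± 7.03 and 47.1 ± 2.59 and was not called in either line. Kif3c lies on chromosome 12, 3365132 to 3406494, and 35.3% of its exonic bases are shared with the antisense gene 1110002L01Rik. That gene measured 42.7 ± 1.67 in WT, 39.8 ± 1.29 in KO1 and 37.4 ± 3.82 in KO2, so its mean was lower where that of Kif3c was higher.

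Kif21b and Kif3c are known from neurons, and neuron markers were read beside them. The summed level of the 5 neuron markers in the table (Tubb3, Map2, Stmn2, Nefl and Nefm) was 408 to 420 in WT, 345 to 363 in KO1 and 316 to 334 in KO2. All 4 of the tested markers (Tubb3, Stmn2, Nefl and Nefm) were called lower in KO2, and 2 of them, Stmn2 and Nefm, in KO1. Of all tested genes, 7.51% were called lower in KO2 and 0.234% in KO1. Map2, under the filter, had means of 2.18 (WT), 3.54 (KO1) and 2.84 (KO2), higher in both lines. Whether these marker levels bear on those of Kif21b and Kif3c was not tested.

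The kinesin-3 motors, which carry vesicles and endosomes, held the other higher calls in KO2. All 6 tested members (Kif1b, Kif1c, Kif13a, Kif13b, Kif14 and Kif16b) had a positive log2 difference in both lines, where 6162 of all 10238 tested genes were positive in KO1 and 5545 in KO2, although in KO1 it was 5 of 6 with edgeR or DESeq2 and with median-ratio or quantile scaling. In KO2, 3 of them were called by limma, beside 18.5% of all tested genes, and Kif1c alone by edgeR, by DESeq2, with median-ratio scaling and when only WT and KO2 were fitted. In KO1 none was called by any of these tools, with 3 at an unadjusted p under 0.05 in limma, beside 1304 of all 10238 tested genes. Their median was 0.12 in KO1 and 0.12 in KO2, beside 0.02 and 0.02 over all tested genes. The lines share the WT libraries, so the same sign in both is not independent evidence. Summed per length, the 8 kinesin-3 genes reached 107% of WT in KO1 and 109% in KO2. This was not particular to them, as the 4 kinesin-2 genes reached 109% and 110%. The 16 tested non-mitotic motors other than Kif2a, which include most of the tested kinesin-3 genes, had a median of 0.10 in each line. Of these, 13 were positive in KO1 and 12 in KO2.

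Kif1c, which carries vesicles and integrins, had the smallest adjusted p among these calls. It had 100.03, 97.2 and 96.5 normalised reads in WT, 105, 104 and 116 in KO1, and 115, 120 and 116 in KO2. All 6 knockout libraries lay above WT, with KO1 replicate 3 inside the KO2 range. In KO2 it rose by 0.25 ± 0.06 (adjusted p = 0.0023), and the call held under all 19 alternatives tried. The KO1 difference was 0.14 ± 0.06 (adjusted p = 0.31).

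Kif1b, a carrier of mitochondria and synaptic vesicle precursors, had 165, 177 and 172 normalised reads in WT, 179, 191 and 180 in KO1, and 198, 183 and 190 in KO2. All 6 knockout libraries lay above WT, by under 2 normalised reads at the nearest pair. The KO2 change was 0.15 ± 0.05 (adjusted p = 0.035), and it was no longer called without WT replicate 1 (adjusted p = 0.15), WT replicate 3 (adjusted p = 0.079) or KO2 replicate 1 (adjusted p = 0.18). Kif13b, which carries the polarity protein Dlg1, had 333, 301 and 319 in WT, 353, 333 and 349 in KO1, and 346, 344 and 347 in KO2. Its libraries were above WT in 6 of 6 cases, but in KO1 by under 1 normalised read. The KO2 change of 0.12 ± 0.05 (adjusted p = 0.049) stayed called without WT replicate 1 and was lost without any other library, at an adjusted p of 0.056 to 0.24.

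**Figure D3:**
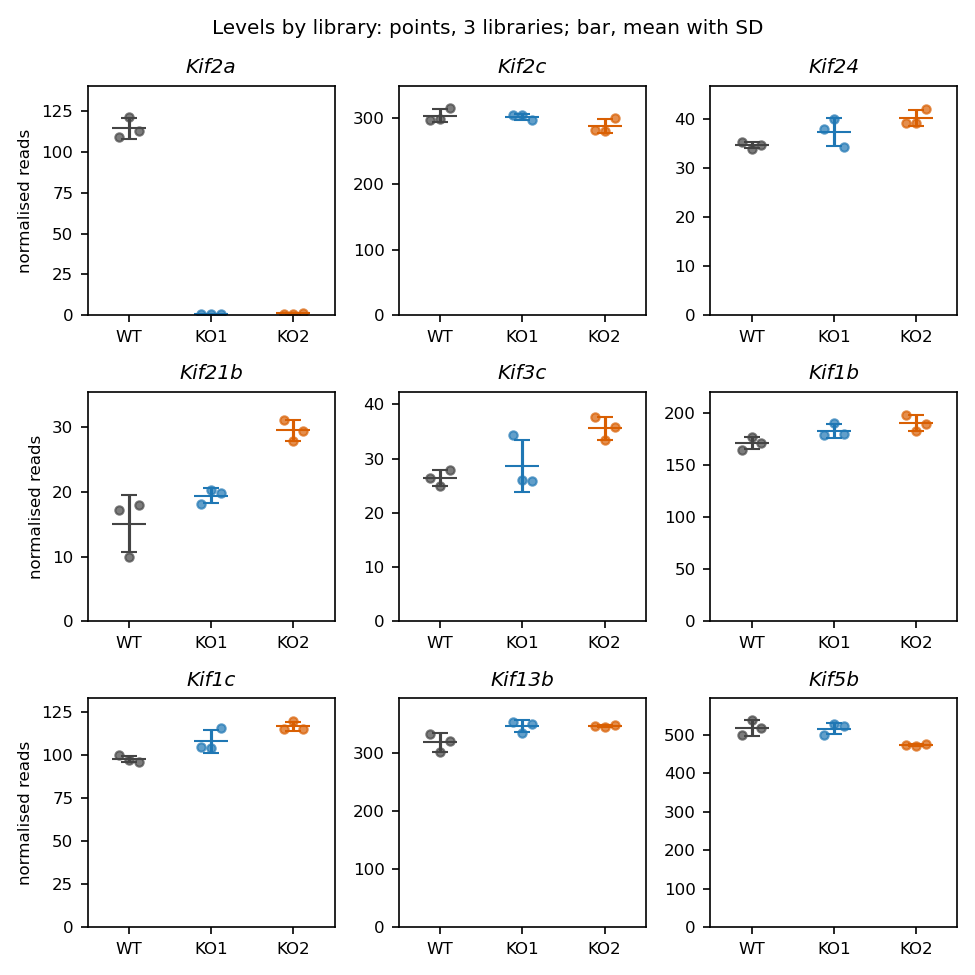
Normalised reads in each of the 9 libraries (points) with the group mean and SD (bars) for Kif2a, the other kinesin-13 genes Kif2c and Kif24, and the 6 other kinesins called in KO2. All axes start at 0, and Kif21b and Kif3c show the widest step between WT and KO2 after Kif2a.

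Kif5b was the only kinesin other than Kif2a called lower by limma with the authors' scaling and all 9 libraries. It had 499, 538 and 516 normalised reads in WT, 499, 527 and 523 in KO1, and 474, 472 and 477 in KO2. Those of KO2 lay below all others and close together, while KO1 and WT overlapped. The KO2 change was −0.13 ± 0.04 (adjusted p = 0.025). It was not called without WT replicate 2 (adjusted p = 0.12), WT replicate 3, KO2 replicate 1 or KO2 replicate 2 (adjusted p = 0.065 in each). The other conventional heavy chains, Kif5a and Kif5c, which are mainly neuronal, measured 70.0 ± 6.51 and 29.3 ± 1.21 in WT and 68.7 ± 6.68 and 28.1 ± 2.41 in KO2, and neither was called.

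None of the 14 mitotic motors was called by limma with the authors' scaling in KO2 against WT. An unadjusted p under 0.05 was found for 4 of them, and for 3174 of all 10238 tested genes. With median-ratio scaling 3 were called lower (Kif20a, Kif20b and Kifc1), with edgeR 2 (Kif20a and Kifc1) and with DESeq2 1 (Kif20a). Of all 10238 tested genes these settings called 1023, 932 and 831 lower. Without KO2 replicate 3, limma called Kif11 and Kif20b, and 1782 of all tested genes. With all 9 libraries and the authors' scaling, the log2 differences of the 14 motors ran from −0.12 to 0.11 with a median of −0.06, beside 0.02 over all tested genes. Of the 14, 11 were negative. In KO1 their median was 0.00, 7 of 14 were negative and 0 were called by limma, edgeR or DESeq2. An unadjusted p under 0.05 in limma was found for 3 of them, and for 1304 of all 10238 tested genes. The KO1 split went to 11 of 14 negative with median-ratio scaling, edgeR or DESeq2 and to 10 of 14 with quantile normalization, at a median of −0.02 in each.

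Kif20a came nearest to a call in KO2 among the mitotic motors. It had 805, 822 and 829 normalised reads in WT, 813, 810 and 861 in KO1, and 768, 781 and 753 in KO2. All KO2 libraries lay below WT and KO1. The difference was −0.09 ± 0.04 against WT (adjusted p = 0.088). Of its exonic bases 29.3% are shared with Cdc23 on the opposite strand, which measured 297 ± 11.5 in WT and 272 ± 9.30 in KO2. Kif22 had 332, 339 and 355 in WT, 328, 338 and 332 in KO1, and 315, 336 and 326 in KO2, and both lines overlapped WT. Kif11 measured 373 ± 17.8 in WT and 350 ± 24.3 in KO2, and Kif23, the motor of the midbody complex centralspindlin, measured 378 ± 21.3 and 393 ± 27.9. Neither was called. Summed per length, the 14 mitotic motors stood at 699 ± 8.29 per kb in WT, 690 ± 5.42 in KO1 and 669 ± 4.26 in KO2.

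The next question was whether another kinesin-13 or another motor was higher where Kif2a was missing. Kif2c had 298, 299 and 315 normalised reads in WT, 305, 306 and 297 in KO1, and 282, 281 and 300.3 in KO2, so both lines overlapped WT. The mean of both lines differed from WT by −0.04 ± 0.04 (adjusted p = 0.56), with a 95% interval of −0.12 to 0.04. For KO1 alone the interval was −0.10 to 0.09, and for KO2 −0.17 to 0.01. Kif24 had 35.3, 34.0 and 34.7 in WT, 37.9, 39.9 and 34.3 in KO1, and 39.2, 39.2 and 42.0 in KO2. All KO2 libraries of Kif24 lay above WT, while KO1 overlapped it. The difference was 0.21 ± 0.09 in KO2 (adjusted p = 0.11, 95% interval 0.02 to 0.39) and 0.15 ± 0.08 for the mean of both lines (adjusted p = 0.23, interval 0.00 to 0.31), and neither was called.

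Per length, Kif2c made up 75.8% of the kinesin-13 RNA in WT, Kif2a 19.4% and Kif24 4.71%. The 3 genes summed to 89.6, 91.7 and 94.2 normalised reads per kb in WT, 74.7, 75.2 and 72.6 in KO1, and 69.7, 69.3 and 74.3 in KO2. This was 80.7% of WT in KO1 and 77.4% in KO2, below WT in every knockout library. Without Kif2a, the sum of Kif2c and Kif24 was 100.02% of WT in KO1 and 95.9% in KO2. The level lost with Kif2a was 17.7 per kb in either line, and the gain of Kif24 was 0.335 per kb in KO1 and 0.683 in KO2.

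**Figure D4:**
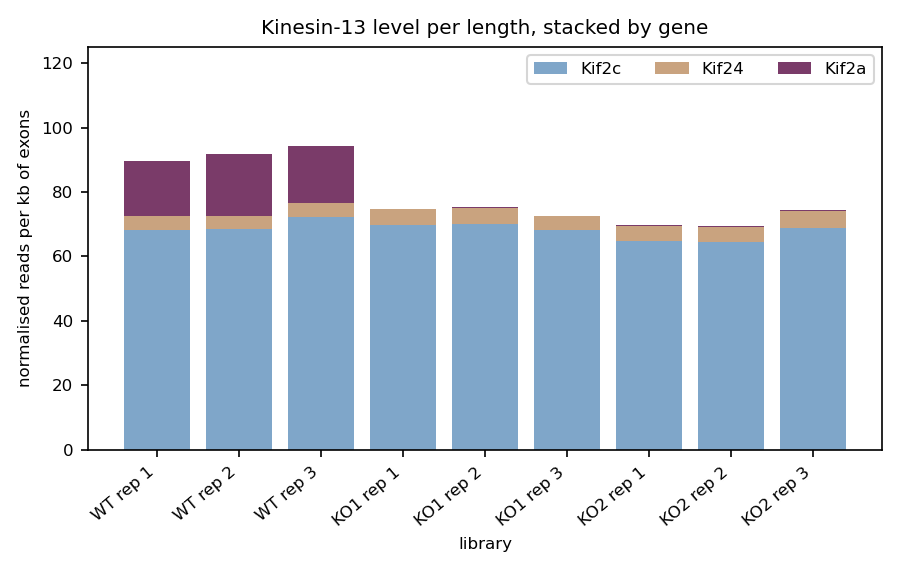
Normalised reads per kb of exons of Kif2c, Kif24 and Kif2a, stacked for each of the 9 libraries. The Kif2a part is present in the WT libraries and all but absent in KO1 and KO2, and the part of Kif2c and Kif24 below it stays between 69.2 and 76.6 per kb.

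Over all 39 kinesins other than Kif2a, the summed level per length was 916 ± 8.03 per kb in WT, 916 ± 8.51 in KO1 and 894 ± 2.06 in KO2, or 100.1% and 97.6% of WT. With median-ratio scaling it was 98.4% and 96.0%. The kinesins called higher in KO2 were weak or moderate per length. Their gains over WT were 2.63 per kb for Kif1c, 2.14 for Kif13b, 1.24 for Kif3c, 1.18 for Kif21b and 1.097 for Kif1b. The 25 non-mitotic motors other than Kif2a summed to 217 ± 1.1003 per kb in WT, 226 ± 3.29 in KO1 and 224 ± 2.26 in KO2. RNA levels do not show protein amounts or motor activity.

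When the mean of both lines was set against WT, 4 of 31 kinesins were called, and 9.09% of all tested genes were called (6.16% higher and 2.93% lower). Kif2a was lower, and Kif21b (0.67 ± 0.12, adjusted p = 7.39e-05), Kif1c (0.20 ± 0.05, adjusted p = 0.012) and Kif13b (0.12 ± 0.04, adjusted p = 0.038) were higher, each in 6 of 6 knockout libraries. With median-ratio scaling, edgeR or DESeq2, 2 were higher and 2 lower, since Kif13b was not called and Kifc1 was called lower. With the 6 knockout libraries fitted as 1 group, Kif21b (adjusted p = 0.14), Kif1c (adjusted p = 0.068) and Kif13b (adjusted p = 0.13) were no longer called. Kif1c was not called without WT replicate 3 (adjusted p = 0.066). Kif13b was not called without WT replicate 2 or 3, KO1 replicate 1 or 3, or KO2 replicate 1 (adjusted p = 0.061 to 0.26). The Kif21b change without WT replicate 2 was 0.42, called at an adjusted p of 0.014. All 6 knockout libraries lay above WT for 4 of the 30 kinesins other than Kif2a (Kif13b, Kif1b, Kif1c and Kif21b) and below WT for 0 of 30, beside 6.37% and 2.7% of all tested genes.

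The lines were then compared with each other. Of the 31 kinesins 3 were called, where 9.92% of all tested genes were called (4.71% higher and 5.22% lower). Kif21b (0.58 ± 0.14) and Kif3c (0.31 ± 0.11, adjusted p = 0.048) were higher in KO2 than in KO1, and Kif5b was lower (−0.12 ± 0.04, adjusted p = 0.047). The KO2 libraries of Kif21b and Kif5b did not overlap KO1, while those of Kif3c did. The Kif21b call was kept without any single library. The Kif3c call was lost without any library other than WT replicate 2 or KO1 replicate 1, at an adjusted p of 0.051 to 0.22. The Kif5b call was lost without WT replicate 1 or 3, KO1 replicate 2 or 3, or KO2 replicate 1 or 2, at an adjusted p of 0.052 to 0.19. The Kif3c and Kif5b calls were also lost with DESeq2, with quantile normalization and without the filter. Kif2a itself did not differ beyond its spread between the lines (0.10 ± 0.18, adjusted p = 0.80).

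Lists of genes that work with kinesins were read beside them in KO2 against WT, where 18.5% of all tested genes were called (11% higher and 7.51% lower). In KO1 against WT 1.06% of all tested genes were called, and 1304 of 10238 had an unadjusted p under 0.05 in limma. Of 18 tested (22 listed) light chains and cargo adaptors, 1 was higher and 2 were lower (16.7% called, near that background), at a median log2 difference of 0.05. Klc3, a kinesin light chain known from sperm, measured 10.8 ± 1.57 in WT, 12.7 ± 1.04 in KO1 and 19.6 ± 1.56 in KO2. It rose by 0.81 ± 0.14 (adjusted p = 2.00e-05), and it stayed called whichever library was left out. The mitochondrial adaptor Rhot2 fell by 0.21 ± 0.06 (adjusted p = 0.011), a call that ended on leaving out WT replicate 1 (adjusted p = 0.077) or WT replicate 3 (adjusted p = 0.093). Madd, which links Kif1b to vesicles, fell by 0.25 ± 0.08 (adjusted p = 0.024), a call that ended on leaving out WT replicate 1 or 3 or KO2 replicate 2 or 3 (adjusted p = 0.069 to 0.19). In KO1 none of the 18 was called by limma, edgeR or DESeq2, with 1 at an unadjusted p under 0.05.

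Of 13 tested (14 listed) regulators and recruiters of kinesin-13 motors, 0 were higher and 2 were lower in KO2, at a median of −0.01. That is 15.4% called, beside 18.5% of all tested genes. Birc5, a subunit of the chromosomal passenger complex, measured 273 ± 8.49 in WT and 244 ± 7.80 in KO2 and fell by 0.17 ± 0.05 (adjusted p = 0.0098), a call that ended on leaving out WT replicate 3 (adjusted p = 0.073) or KO2 replicate 2 (adjusted p = 0.059). Mapre1, the plus-end binding protein EB1, measured 293 ± 2.93 and 262 ± 11.3 and fell by 0.16 ± 0.05 (adjusted p = 0.012), a call that ended on leaving out WT replicate 3 (adjusted p = 0.051) or KO2 replicate 1 (adjusted p = 0.091). Of 10 partners of mitotic motors 1 was called, beside the same 18.5%. Mad2l1, a spindle checkpoint protein, was 161 ± 4.68 in WT and 141 ± 13.1 in KO2 and fell by 0.19 ± 0.06 (adjusted p = 0.018), a call that ended on leaving out WT replicate 2 or 3 or KO2 replicate 1 or 2 (adjusted p = 0.057 to 0.12). In KO1 neither list had a call by limma, edgeR or DESeq2, with 1 regulator and 0 partners at an unadjusted p under 0.05 in limma.

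Dynein and dynactin, which drive transport toward minus ends, had 2 genes higher and 2 lower among 27 tested (29 listed) in KO2, at a median of 0.02. That is 14.8% called, under the 18.5% of all tested genes, and edgeR and median-ratio scaling called 4 lower. The heavy chain Dync1h1 measured 1944 ± 79.5 in WT, 2081 ± 25.5 in KO1 and 2192 ± 15.3 in KO2. It rose by 0.17 ± 0.04 in KO2 (adjusted p = 0.00028), and it stayed called whichever library was left out. The light chain Dynlt1b rose by 0.30 ± 0.09 (adjusted p = 0.013), a call that ended on leaving out WT replicate 2 (adjusted p = 0.074) or KO2 replicate 3 (adjusted p = 0.062). The light chain Dynll1 fell by 0.17 ± 0.04 (adjusted p = 0.0054), a call that ended on leaving out WT replicate 1 (adjusted p = 0.052). The adaptor Bicd1 fell by 0.45 ± 0.15 (adjusted p = 0.024), a call that ended on leaving out WT replicate 1 or 3 or KO2 replicate 1 or 3 (adjusted p = 0.052 to 0.17). In KO1 none of the 27 was called by limma, edgeR or DESeq2, with 4 at an unadjusted p under 0.05.

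Of 6 tested (11 listed) destabilisers of microtubules outside the kinesins, 2 were called in KO2, both lower, beside 18.5% of all tested genes called and 7.51% called lower. Stmn1, which sequesters tubulin, measured 306 ± 19.6 in WT, 277 ± 11.1 in KO1 and 271 ± 0.631 in KO2. It fell by 0.17 ± 0.05 in KO2 (adjusted p = 0.0073), a call that ended on leaving out WT replicate 3 (adjusted p = 0.076). Stmn2, a related protein that also served as a neuron marker, measured 224 ± 7.91, 191 ± 7.02 and 200 ± 9.89. It fell by 0.16 ± 0.05 in KO2 (adjusted p = 0.020), a call that ended on leaving out WT replicate 2 or 3 or KO2 replicate 1 (adjusted p = 0.075 to 0.15). In KO1 it fell by 0.22 ± 0.05 (adjusted p = 0.013) and was the only called gene of these 5 lists, a call that ended on leaving out WT replicate 2 or 3 or KO1 replicate 1 or 3 (adjusted p = 0.054 to 0.15). In none of these 5 lists were the lower and the higher calls set against each other by a test.

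Markers of other cells were also read, and within a list they did not all go the same way in KO2. The summed level of 5 feeder fibroblast markers (Col1a1, Col1a2, Thy1, Pdgfrb and Fbln2) was 40.2 to 45.1 in WT, 50.1 to 53.2 in KO1 and 59.2 to 63.5 in KO2. Both tested members, Pdgfrb and Fbln2, were called higher in KO2, as were 11% of all tested genes. Thy1, Col1a1 and Col1a2 lay under the filter and did not move together. Thy1 had means of 7.22 (WT), 7.56 (KO1) and 10.7 (KO2), and every KO2 library was above WT. Col1a1 and Col1a2 are the defining collagens of fibroblasts. Means of Col1a1 were 1.94 (WT), 0.998 (KO1) and 1.60 (KO2), and its KO2 libraries overlapped WT. Those of Col1a2 were 3.94 (WT), 4.62 (KO1) and 3.14 (KO2). Its KO2 libraries lay below WT, at the nearest pair with 3.49 against 3.52. The summed level of 3 primitive endoderm markers was 18.9 to 21.6 in WT, 17.3 to 21.2 in KO1 and 24.0 to 25.2 in KO2, where Gata4 was called higher. Gata4 alone rose in that sum, from a mean of 12.6 in WT to 20.2 in KO2, while Pdgfra (1.94 and 1.18) and Dab2 (5.90 and 3.42), both under the filter, had lower means in KO2. That of 3 trophoblast markers was 57.3 to 69.1, 70.8 to 74.7 and 67.1 to 68.3, with no call. No ES cell marker was called in KO1, and Zfp42 was called lower in KO2 (−0.17 ± 0.04). The part of these marker levels in the kinesin results was not tested.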

How the data were processed

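Per the submitters' processing notes, the authors worked with HISAT2, DESeq2 and the GRCm38 build, and the versions, annotation and use of strand were not stated there. The deposited signal is a value per gene and library that the authors scaled, as gene counts divided by 1 factor per library. In each library 100% of values were whole multiples of 1 step within 0.05 reads, which recovered the reads. Counts had been planned for as well, and normalised values were found, so limma 3.58.1 (R 4.3.3; trend, robust) was fitted to log2(value + 1) for genes with a mean of at least 10, with 1 mean per group. edgeR 4.0.16 and DESeq2 1.42.0 were run on recovered reads. Exon lengths, positions and overlaps came from GENCODE M21 by symbol, and promoters from RefSeq. The fits were also run on simulated counts whose means and spread came from these libraries. Both lines were given the same changes there, so that run could not test clone effects or the calls in the real data.

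The members and lists were chosen with earlier results of these data known. Library values are given for Kif2a, the other kinesin-13 genes, every kinesin called in a comparison and the 4 highest per length. Other kinesins were named after their values were seen. Each list is represented by at most 4 genes, taken in order of adjusted p, and only called ones are described.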

Additional observations from a re-analysis of the deposited data

Results flagged for a closer look

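For 3 kinesins the change in KO2 differed from the change in KO1, by the test of KO2 against KO1 in limma. These are 3 of 31 tested kinesins, a share near the 9.92% of all tested genes that were called. The difference was 0.58 ± 0.14 on the log2 scale for Kif21b (adjusted p = 0.0033), 0.31 ± 0.11 for Kif3c (adjusted p = 0.048) and −0.12 ± 0.04 for Kif5b (adjusted p = 0.047). For Kif21b the libraries of WT, KO1 and KO2 formed 3 ranges without overlap, and for Kif3c KO1 replicate 1 stood apart from the other KO1 libraries. The Kif3c call was lost in 11 of 18 alternatives tried, the Kif5b call in 10 of 19 and the Kif21b call in 0 of 18. Groups of 3 libraries were not searched for single outlying samples.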

How the results depend on the processing

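In all, 851 values were recomputed under other settings. In 108 of them a called change of a kinesin or listed gene was no longer called, and in none did a called change reverse its direction. The 851 also hold counts, levels, a rank and the changes of Kif2c and Kif24, which were not called. None of these could lose a call, so the share of calls lost is larger than 108 of 851. Of the recomputed values that are counts or levels, 20 moved by more than a set limit and 104 stayed the same. Changes near 0 that were not called were not all followed, and in KO1 1 of the 6 kinesin-3 motors turned negative with median-ratio or quantile scaling, edgeR or DESeq2. Testing only genes with a mean of at least 50 left 0 kinesins called in KO1, 4 in KO2, 2 for the mean of both lines and 1 in KO2 against KO1, since Kif2a, Kif21b and Kif3c lie under that level. With the 6 knockout libraries as 1 group, the mean contrast called 1 kinesin, Kif2a. In KO2 against KO1, 1 was called without a filter and with quantile normalization. Leaving out 1 library gave 1 call in KO1, 4 to 9 in KO2, 2 to 5 for the mean of both lines and 1 to 4 in KO2 against KO1. The summed level of kinesins other than Kif2a was 98.4% of WT in KO1 and 96.0% in KO2 with median-ratio scaling, and 98.96% in KO1 with quantile normalization.

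The groups share replicate numbers, but same-numbered libraries did not deviate together (correlations of −0.129 to 0.027), so the numbers were not taken as pairs. Differently numbered libraries of different groups gave correlations of −0.092 to 0.166, the highest for WT replicate 2 with KO2 replicate 3. Whether libraries of different groups share a batch was not tested. With the replicate block 5 kinesins were called in KO2, without Kif13b (adjusted p = 0.058) and Kif1b (0.050), and 1 in KO2 against KO1, without Kif3c (0.054) and Kif5b (0.061). The other calls were kept. Where nothing else is said, the cause was not tested. With 3 libraries per group and 2 to 92 reads for the weakest kinesins, depth limits what can be said of those.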
